A study of Mus musculus with 9 samples.

Results

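The insulin receptor and the genes that carry its signal to the FOXO transcription factors were examined in the livers of diabetic mice with and without insulin treatment. The 10 genes are Insr, Irs1, Irs2, Grb10, Pik3r1, Akt1, Akt2, Foxo1, Foxo3 and Igfbp1, taken as every non-control probe whose RefSeq accession maps to 1 of these symbols. They account for 16 of the 55681 probes on the array, and 9 of the genes, with 15 probes, were bright enough to be tested among 13386 tested genes. Total RNA of liver was measured from male mice aged 20 weeks, with 1 Agilent array per mouse and 3 mice per group. STAM mice (STelic Animal Model, C57BL/6J in the study's methods) had received streptozotocin as newborns, which destroys the insulin-secreting beta cells, and later fat-rich feed. STAM-NON mice were left untreated, STAM-INS mice were given insulin (insulin glargine under the skin, per the methods), and Normal mice had a standard diet with neither streptozotocin nor insulin. Both STAM groups thus share streptozotocin and high-fat feeding, and the 2 factors are not separated in any group. At this age STAM livers can carry tumours, and which part of a liver was sampled is not given in the sources used here.

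Insulin binds its receptor tyrosine kinase, which phosphorylates the adaptor proteins Irs1 and Irs2. These recruit PI3-kinase, whose lipid product brings Akt to the membrane, and active Akt phosphorylates FOXO proteins and keeps them out of the nucleus. In the fasted or insulin-deficient liver, nuclear FOXO1 drives genes of glucose output as well as Igfbp1 and Irs2, so that the last of these is itself an output of the pathway it serves. Most of this control acts on proteins. The arrays measured transcripts and say nothing of phosphorylation.

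Igfbp1 and Irs2, the 2 members that are textbook FOXO targets, both carry a copy of the insulin response sequence, searched as CAAAACA on both strands, in the 250 bases before their start site. The RefSeq upstream sequences (GRCm38.p6) are shown 5′ to 3′ along the gene's strand, with the motif in capitals (TGTTTTG where it lies on the other strand). The Igfbp1 sequence lies on the plus strand at chr11:7197537-7197786 and the Irs2 sequence on the minus strand at chr8:11008930-11009179.
Igfbp1: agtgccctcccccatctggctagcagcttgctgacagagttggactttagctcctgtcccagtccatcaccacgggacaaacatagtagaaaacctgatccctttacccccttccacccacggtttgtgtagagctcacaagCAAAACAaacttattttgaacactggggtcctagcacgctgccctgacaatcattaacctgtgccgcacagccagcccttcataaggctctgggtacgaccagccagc
Irs2: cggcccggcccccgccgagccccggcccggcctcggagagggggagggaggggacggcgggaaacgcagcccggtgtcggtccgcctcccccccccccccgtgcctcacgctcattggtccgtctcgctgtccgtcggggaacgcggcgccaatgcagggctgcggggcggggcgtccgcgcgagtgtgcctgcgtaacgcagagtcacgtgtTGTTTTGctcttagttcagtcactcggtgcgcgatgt
In Igfbp1 the match spans bases -108 to -102 from the start site and in Irs2 bases -37 to -31. Of the 15 start sites of the 9 members listed in the promoter table, 3 held this motif, the other being that of Irs1. Of all 32851 windows of this length, 5.56% did. The related forkhead core GTAAACA was found at 1 start site of Akt1 and in 3.17% of all windows. A match describes these letters in this window and does not show that FOXO1 binds there.

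Values are centred log2 signals, that is log2 of the background-subtracted spot intensity less the log2 of that array's 75th percentile. A value of 0 thus marks the 75th percentile, and no level of 1 probe is set against that of another. A difference passed if its adjusted p, from limma with Benjamini-Hochberg adjustment over all 26278 tested probes, was under 0.05. Liver identity was plain on all arrays, with 8 of 8 hepatocyte markers well above background on each, although 1 of them, the urea cycle gene Cps1, fell by 0.67 in both STAM groups against Normal. The 7 measured macrophage markers were above background on all arrays. Their summed signal relative to the 75th percentile was 95.9 to 145 in Normal, 196 to 342 in STAM-NON and 160 to 389 in STAM-INS, and 2 of the 7, Cd5l and Clec4f, rose in each STAM group. Of 4 tested markers of bile duct cells, 3 (Krt7, Sox9 and Spp1) rose in STAM-NON and 1 (Sox9) in STAM-INS, with a summed signal of 1.62 to 2.87 in Normal, 3.71 to 9.34 in STAM-NON and 3.60 to 5.46 in STAM-INS. Of the other lists, 1 of 7 endothelial markers (Lyve1, by 3.01) and 1 of 8 stellate and fibroblast markers (Lum, by 1.13) rose in STAM-NON. The median differences of these lists there were 0.08 and 0.76. Of 2 tested pancreatic markers, Ctrb1 fell there by 0.78. Of 3 tested erythroid markers, Hemgn fell by 0.65 in STAM-NON and by 0.90 in STAM-INS. Without passing, Alas2 differed by -1.68 and -1.11 and Slc4a1 by 2.29 and 2.87. The tested lymphocyte, neutrophil and adipose markers did not pass. The adipose marker Car3 differed from Normal by -2.30 in STAM-NON and -2.23 in STAM-INS. The median of 4 neutrophil markers differed by 3.11 and 2.32, but Csf3r among them differed by -0.03 and -0.01. Mpo was above background on 0 Normal arrays, and S100a8 read 1.08, -0.04 and 5.45 in STAM-NON. The summed neutrophil signal overlapped, at 122 to 151 in Normal, 141 to 306 in STAM-NON and 140 to 156 in STAM-INS. In bulk liver, a change in the number of cells of a type and a change in RNA per cell cannot be told apart. The 6 STAM arrays were on 1 slide and the 3 Normal arrays on the other, so slide and group cannot be told apart in comparisons with Normal. All STAM-NON arrays and STAM-INS replicate 1 lay in row 1 of their slide. STAM-INS replicates 2 and 3 and all Normal arrays lay in row 2. Row and group thus cannot be told apart between STAM-NON and Normal, and largely coincide between STAM-INS and STAM-NON. Between 46.2% and 51.1% of spots were well above background on 6 arrays, and 59.3% to 65.0% on STAM-NON replicates 1 and 3 and STAM-INS replicate 1. Comparisons also share arrays (Normal or STAM-NON), so their differences are given side by side.

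Across the 9 tested genes, 1 passed in any comparison, Foxo1, which fell in STAM-INS against Normal. Between STAM-NON and Normal, the comparison of untreated disease, 0 of 9 passed, against 16.8% of all tested genes, and 3 members (Insr, Igfbp1 and Grb10) had an unadjusted limma p under 0.05. Between STAM-INS and STAM-NON, the comparison that addresses the effect of insulin treatment, the calls were again 0 of 9, with 0 at an unadjusted p under 0.05, and 0.0822% of all genes (11 genes) passed. Between STAM-INS and Normal, 1 of 9 passed, against 13.6% of all genes, and 3 had an unadjusted p under 0.05. Groups did not overlap for 4 members between STAM-NON and Normal, 1 between STAM-INS and STAM-NON and 4 between STAM-INS and Normal, where the shares of all genes were 40.9%, 12.7% and 44.9%. The median member difference was 0.04, 0.05 and -0.02 in the 3 comparisons, and that of all tested genes -0.11, 0.03 and -0.07. The median SE of a group difference over all probes was 0.18.

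**Figure D1:**
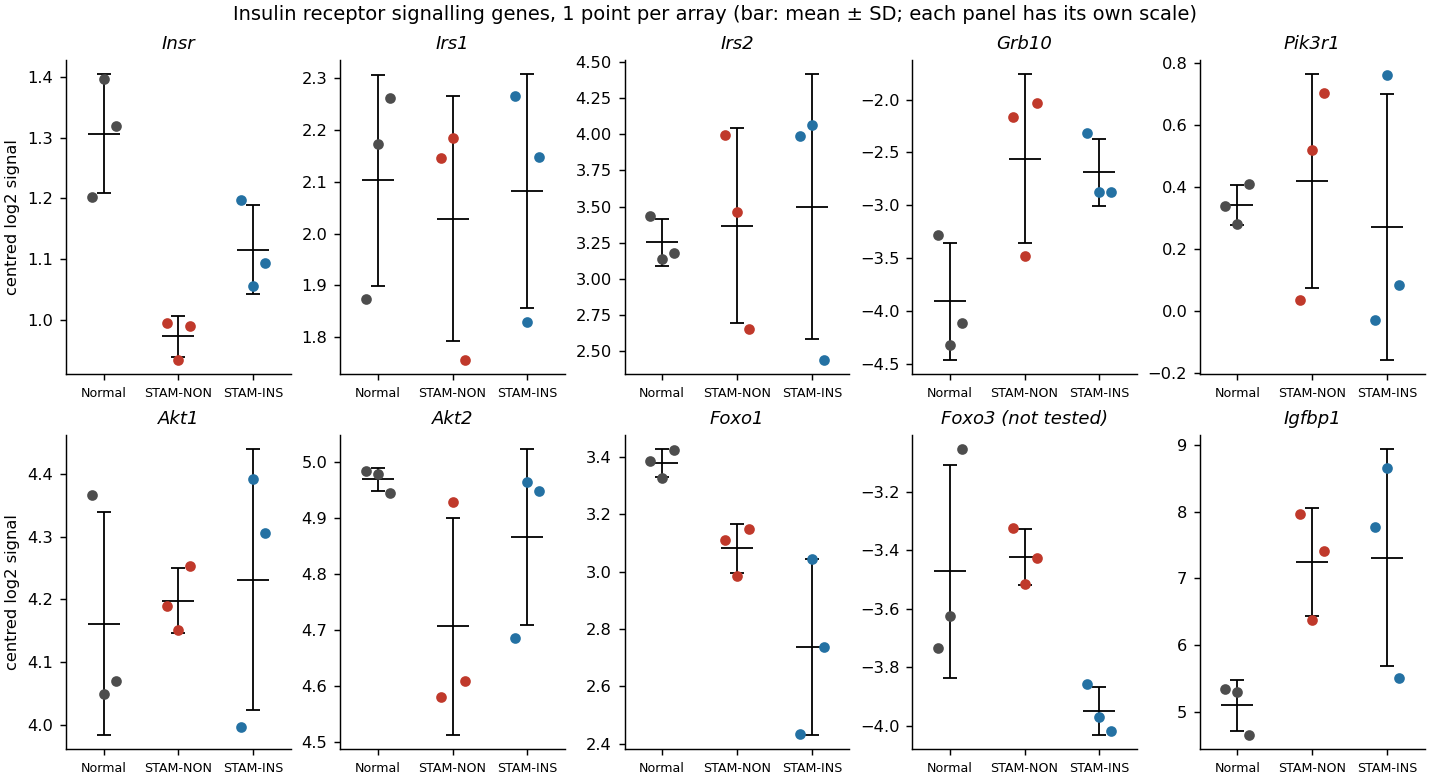
Centred log2 signal (vertical axis, own scale in each panel) of the 10 genes in Normal, STAM-NON and STAM-INS livers, with 1 point per array in replicate order and the bar giving mean ± SD (n = 3). Igfbp1 lay above every Normal array on all 6 STAM arrays, Foxo1 lay below every Normal array on all 6, and the Irs1 and Akt1 values of the 3 groups were intermixed.

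At the top of the pathway, the transcript of the insulin receptor itself was slightly lower in untreated STAM livers. The probe standing for Insr read 1.20, 1.40 and 1.32 in Normal, 0.99, 0.93 and 0.99 in STAM-NON, and 1.20, 1.06 and 1.09 in STAM-INS. The 3 STAM-NON values lay below all others and STAM-INS lay between, its highest array just under the lowest Normal array. The difference between STAM-NON and Normal was -0.33 (95% interval -0.57 to -0.10), 1.26-fold, and did not pass (limma adjusted p 0.0569). Its other probes differed by -0.27 and -0.17 in the same comparison, so that all 3 probes were lower. Against the median of all tested probes, -0.13, the shift was smaller, and it shrank to -0.02 with spike-in centring, which scales each array on its E1A controls, synthetic RNAs added to every sample. With insulin the difference from STAM-NON was 0.14 (-0.09 to 0.37; limma adjusted p 0.731).

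The adaptors showed no shared shift. Irs1 read 1.87, 2.17 and 2.26 in Normal, 2.15, 2.18 and 1.76 in STAM-NON and 2.27, 1.83 and 2.15 in STAM-INS, and each group spanned most of the range of the others. Its differences were -0.07, 0.05 and -0.02 for STAM-NON against Normal, STAM-INS against STAM-NON and STAM-INS against Normal, and the 95% intervals kept each within 0.48 of 0 in either direction. A dimmer Irs1 probe had 1 high Normal array and differed by -0.41 between STAM-NON and Normal (limma adjusted p 0.458). Irs2, the adaptor that FOXO1 can induce, was more variable. It read 3.44, 3.14 and 3.18 in Normal, 3.99, 3.46 and 2.65 in STAM-NON and 3.99, 4.06 and 2.44 in STAM-INS. Thus the Normal mice lay close together (SD 0.16) while those of each STAM group were spread widely (SD 0.67 and 0.92), and replicate 3 was the lowest array of both STAM groups. The Irs2 difference between STAM-NON and Normal was 0.12 (-0.95 to 1.18), too wide to place it on either side of 0.

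Grb10, an adaptor that binds the activated receptor and restrains its signalling, lay near background and did not pass in any comparison. Its values were -3.28, -4.32 and -4.11 in Normal, -2.16, -3.47 and -2.04 in STAM-NON and -2.32, -2.87 and -2.88 in STAM-INS. It was well above background on 1 of 3 Normal, 2 of 3 STAM-NON and 3 of 3 STAM-INS arrays. It thus entered the fit only through STAM-INS, a group where it was higher than in Normal. Its p values are therefore not independent of the detection filter. The differences from Normal were 1.35 (0.39 to 2.30; limma adjusted p 0.0587) in STAM-NON and 1.22 (0.26 to 2.17; limma adjusted p 0.0845) in STAM-INS, and STAM-INS differed from STAM-NON by -0.13 (-1.08 to 0.82). The 3 highest Grb10 arrays were the same 3 that had the largest share of spots above background, and a dim spike-in control, which holds no mouse sequence, ranged from -3.997 to -3.07 over the arrays. The summed macrophage and bile duct marker signals given above were also higher in both STAM groups than in Normal. Within STAM-INS, replicate 1 had the highest Grb10 value (-2.32) and the lowest Cd5l and Clec4f values (5.87 and 4.30). The part of any of these in the Grb10 difference was not tested. With normexp background correction, which compresses dim signals, the differences from Normal were 0.27 and 0.23 (limma adjusted p 0.104 and 0.177). Leaving out each array in turn gave 1.08 to 1.80 in STAM-NON and 1.01 to 1.53 in STAM-INS, and without STAM-NON replicate 2 Grb10 passed in both (1.80 and 1.22; limma adjusted p 0.0165 and 0.0447).

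Further down, Pik3r1, the main regulatory subunit of PI3-kinase, read 0.34, 0.28 and 0.41 in Normal, 0.04, 0.52 and 0.70 in STAM-NON and -0.03, 0.76 and 0.08 in STAM-INS. The Normal values fell inside the range of each STAM group, and the differences of 0.08, -0.15 and -0.07 were smaller than the spread between STAM mice (SD 0.34 and 0.43). Akt1 read 4.37, 4.05 and 4.07 in Normal, 4.19, 4.15 and 4.25 in STAM-NON and 3.997, 4.39 and 4.31 in STAM-INS. Its group means differed by at most 0.07, with all 95% intervals inside ±0.40. Akt2, the main Akt of hepatocytes, was measured by 3 probes. The brightest read 4.98, 4.98 and 4.95 in Normal, 4.58, 4.93 and 4.61 in STAM-NON and 4.69, 4.96 and 4.95 in STAM-INS. STAM-NON lay below every Normal array on each of the 3 probes, with differences of -0.26, -0.38 and -0.32 (limma adjusted p 0.190, 0.0940 and 0.0964). The first of these became 0.05 with spike-in centring, so its direction depends on the scaling. In STAM-INS the brightest probe differed from STAM-NON by 0.16 (-0.14 to 0.46; limma adjusted p 0.779).

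**Figure D2:**
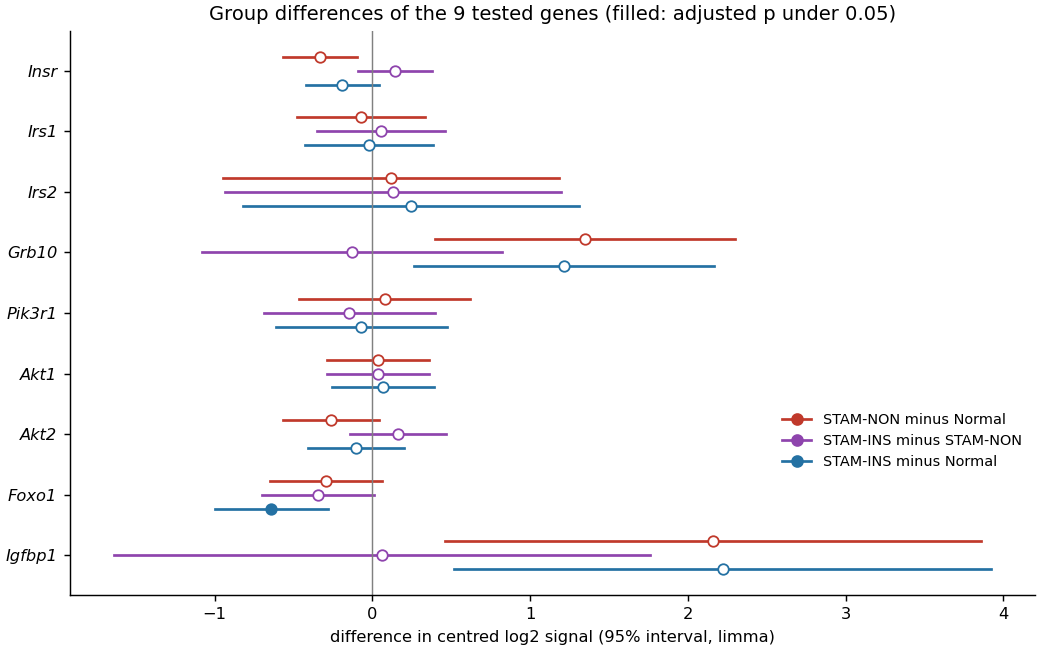
Differences in centred log2 signal (horizontal axis) of the 9 tested genes in the 3 comparisons, as point and 95% interval from limma (n = 3 arrays per group), with filled points for an adjusted p under 0.05. The only filled point is Foxo1 in STAM-INS minus Normal at -0.64, while Igfbp1 has both the furthest points, 2.16 and 2.22, and the widest intervals.

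Foxo1, the FOXO factor that mediates most insulin-repressed transcription in liver, was highest in Normal and lowest in STAM-INS. It read 3.38, 3.33 and 3.42 in Normal, 3.11, 2.99 and 3.15 in STAM-NON and 2.43, 3.04 and 2.74 in STAM-INS. No STAM array reached the lowest Normal array, and the STAM-INS arrays were spread widely (SD 0.31) and overlapped STAM-NON. In STAM-INS it fell by 0.64 (95% interval of the difference -0.995 to -0.28), 1.56-fold, against Normal (limma adjusted p 0.0326). The second Foxo1 probe read 2.65, 2.47 and 2.70 in Normal and 1.63, 2.30 and 1.98 in STAM-INS, and likewise fell by 0.63 (limma adjusted p 0.0471). In STAM-NON the difference from Normal was -0.30 (-0.65 to 0.06; limma adjusted p 0.203) and that of STAM-INS from STAM-NON was -0.34 (-0.70 to 0.01; limma adjusted p 0.578), so neither step taken alone passed. The call was close to the threshold and was lost under 14 of 21 alternatives (limma adjusted p 0.0502 to 0.155), although the difference stayed between -0.79 and -0.48. Among the arrays in row 2 of their slides (2 STAM-INS, 3 Normal) it was -0.49 (limma adjusted p 0.0669). With the slide row as a block, the Foxo1 difference between STAM-NON and Normal became 0.16, so its direction was not settled. The 3 genes whose values over the 9 arrays were most like those of Foxo1, among 13377 others, were Cdc45, Adgrf5 and Fnip2, with Pearson r of 0.95, 0.95 and 0.94. Cdc45 is a DNA replication protein, Adgrf5 an adhesion G protein-coupled receptor and Fnip2 a partner of folliculin. These correlations are a description over arrays that share group and slide.

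Foxo3 lay near background, and its 1 probe was not tested. It was well above background on 1 Normal, 2 STAM-NON and 1 STAM-INS array. The values were -3.74, -3.63 and -3.06 in Normal, -3.32, -3.52 and -3.43 in STAM-NON and -3.86, -3.97 and -4.02 in STAM-INS, and these values near background support no order of the groups.

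Igfbp1 had the largest difference of any member. This secreted protein binds insulin-like growth factors, and its transcription in hepatocytes is switched off by insulin. It read 5.33, 5.29 and 4.65 in Normal, 7.97, 6.37 and 7.41 in STAM-NON, and 7.78, 8.65 and 5.51 in STAM-INS. All 6 STAM arrays lay above all 3 Normal arrays, but STAM-INS replicate 3 was above the highest Normal array by less than the Normal arrays differed among themselves, while STAM-INS replicate 2 was the highest of all 9. The difference between STAM-NON and Normal was 2.16 (0.46 to 3.86), 4.46-fold, and between STAM-INS and Normal 2.22 (0.52 to 3.92), 4.66-fold. Neither passed, with limma adjusted p of 0.0790 and 0.0803, against a spread of 0.81 and 1.62 (SD, n = 3) in the STAM groups and 0.38 in Normal. STAM-INS differed from STAM-NON by 0.06, with a 95% interval from -1.64 to 1.76, which allows a 3-fold change in either direction. The values depended on single arrays. Without STAM-INS replicate 2 the difference between STAM-INS and Normal was 1.55 (limma adjusted p 0.230), and without STAM-NON replicate 1 that between STAM-NON and Normal was 1.80 (limma adjusted p 0.200). Without STAM-INS replicate 3, Igfbp1 passed in both comparisons with Normal, at 2.16 and 3.12 (limma adjusted p 0.0307 and 0.0188). That array was also the lowest STAM-INS array for Irs2, but not for Irs1. What the values of this 1 mouse share was not tested.

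The wider pathway was described with a list of 120 genes in 11 roles, of which 113 were tested. Between STAM-NON and Normal 11 passed, 5 higher and 6 lower, or 9.73% of those tested. Between STAM-INS and Normal 15 passed, 8 higher and 7 lower, or 13.3%, and between STAM-INS and STAM-NON 0 passed by limma, with 11 at an unadjusted p under 0.05. Medians over the list were -0.01, -0.01 and 0.02 respectively. Shares passing were thus no higher than over all genes. The calls of single pathway genes were lost under 3 to 15 of 20 alternatives in the first comparison and under 0 to 15 of 21 (20 for Pnpla3) in the second, and none of these genes changed direction. Normexp lowered the size of the dimmer ones, to 0.47 for Igf1r, 0.34 for Cbl and 0.64 for Pik3r3 in STAM-NON and to -0.43 for Gab1, 0.92 for Pik3r3 and 0.66 for Pnpla3 in STAM-INS, where the Cbl and Pnpla3 calls were lost. Spike-in centring gave -0.53 for Ide, -0.39 for Deptor, -0.61 for Foxk1 and -0.58 for Cat in STAM-NON, each no longer passing.

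**Figure D3:**
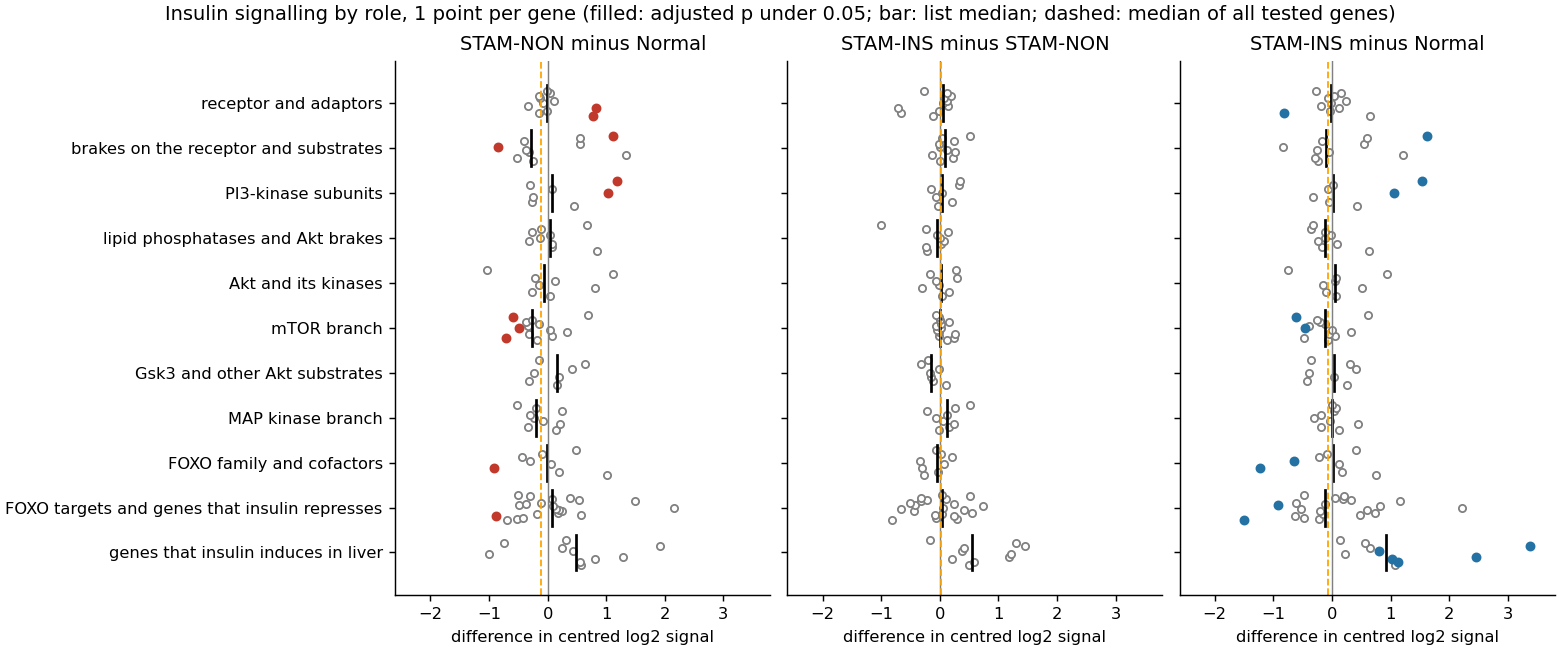
Differences in centred log2 signal (horizontal axis) of the 113 tested pathway genes, 1 point per gene in 11 roles (rows) and 1 panel per comparison, with filled points for a limma adjusted p under 0.05, a bar at each role's median and a dashed line at the median of all tested genes. In STAM-INS minus Normal the genes that insulin induces all lie right of 0, with 5 of 10 filled and a median of 0.92, while the other roles centre near 0.

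Among the receptors and adaptors, Igf1r, the receptor for insulin-like growth factor 1, rose by 0.83 in STAM-NON against Normal (limma adjusted p 0.0357). It read -1.50, -1.37 and -1.74 in Normal, -0.55, -1.18 and -0.40 in STAM-NON and -1.58, -1.27 and -1.39 in STAM-INS, where it overlapped Normal. The difference of STAM-INS from STAM-NON was -0.71 (limma adjusted p 0.473). Cbl, a ubiquitin ligase recruited to insulin and growth factor receptors, rose by 0.78 in STAM-NON. Gab1, a docking protein related to the Irs family, fell by 0.81 in STAM-INS against Normal (limma adjusted p 0.00928). Its 3 STAM-INS values of -1.91, -1.998 and -1.91 lay below the -1.45 to -0.99 of the 6 other arrays. Against STAM-NON the Gab1 difference was -0.66 (-0.97 to -0.36), with the smallest unadjusted p of the list in that comparison (0.000951) and a limma adjusted p of 0.263.

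Of the brakes on the receptor, Socs3, a cytokine-induced inhibitor that targets the receptor and Irs proteins, rose in both STAM groups against Normal, by 1.11 in STAM-NON and 1.62 in STAM-INS (limma adjusted p 0.0317 and 0.00993). It read 1.72, 0.86 and 0.90 in Normal, 2.05, 2.73 and 2.04 in STAM-NON and 2.77, 2.64 and 2.95 in STAM-INS. Ide, the insulin-degrading enzyme, fell by 0.84 in STAM-NON. Among PI3-kinase subunits, Pik3r3, a regulatory subunit, rose by 1.19 and 1.53 in STAM-NON and STAM-INS (limma adjusted p 0.0141 and 0.00471), with Normal arrays at -2.19 to -2.09 and STAM arrays at -1.32 to -0.41. Its call in STAM-INS held under all 21 alternatives, with limma adjusted p of at most 0.0326. Pik3cd, the catalytic subunit best known from leukocytes, rose by 1.04 and 1.07 beside the rise in macrophage marker signal given above, whose part in it was not tested. A second Pik3cd probe rose by 1.26 and 1.16 and the remaining, dim probe differed by -0.65 and -0.18 without passing. No tested gene of the lipid phosphatases, the Akt kinases, the other Akt substrates or the MAP kinase branch passed by limma in any comparison. In STAM-NON against Normal 1, 3, 1 and 2 genes of these roles had an unadjusted p under 0.05.

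In the mTOR branch, Tsc1 and Rheb, the inhibitor and the GTPase that control mTORC1, both fell in both STAM groups. Tsc1 fell by 0.60 in STAM-NON and by 0.61 in STAM-INS, and Rheb fell by 0.48 and by 0.46, with limma adjusted p of 0.0433 and 0.0441 for Tsc1 and 0.0356 and 0.0428 for Rheb. These calls were lost under 13 to 15 alternatives, and with spike-in centring the STAM-NON differences were -0.28 for Tsc1 and -0.17 for Rheb. Deptor, an mTOR-binding inhibitor, fell by 0.70 in STAM-NON, where its values were 3.33, 3.36 and 3.10 against 4.07, 3.81 and 4.02 in Normal. A second Rheb probe differed by -0.30 and -0.33 and did not pass. Foxk1, a forkhead factor also controlled by insulin through mTOR, fell by 0.92 in STAM-NON and by 1.23 in STAM-INS (limma adjusted p 0.0461 and 0.0211). Foxk1 values were 1.07, 0.70 and 1.70 in Normal, 0.35, 0.20 and 0.16 in STAM-NON and 0.30, -0.28 and -0.25 in STAM-INS.

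Of 21 tested FOXO targets and genes that insulin represses, 2 (9.52%) fell in STAM-INS against Normal and 0 rose, where 7.49% of all genes fell. Differences were above 0 for 10 of the 21, and the median was -0.13 against -0.07 over all genes. Angptl4, a secreted inhibitor of lipoprotein lipase, fell by 1.51, from 7.39, 7.36 and 7.54 in Normal to 5.32, 6.49 and 5.96 in STAM-INS (limma adjusted p 0.0190). Klf15, a transcription factor of gluconeogenesis and amino acid breakdown, fell by 0.92, from 3.41, 3.89 and 3.96 to 2.81, 3.02 and 2.66 (limma adjusted p 0.0172). The STAM-NON means lay between for both, with values of 7.10, 6.87 and 6.26 for Angptl4 and 3.32, 3.41 and 3.04 for Klf15. In STAM-NON against Normal, 1 gene of this role passed, the peroxisomal Cat (catalase), which fell by 0.89. The gluconeogenic pair G6pc and Pck1 was added for its textbook role after the values were seen. G6pc read 5.94, 6.60 and 5.80 in Normal, 6.54, 6.85 and 5.50 in STAM-NON and 6.998, 7.16 and 5.99 in STAM-INS. The 3 groups overlapped, and STAM-INS replicate 3 was again the lowest of its group. Pck1 read 8.50, 8.37 and 8.60 in Normal, 8.67, 8.65 and 7.82 in STAM-NON and 8.01, 8.03 and 7.60 in STAM-INS, a difference of -0.61 between STAM-INS and Normal that did not pass (limma adjusted p 0.117).

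**Figure D4:**
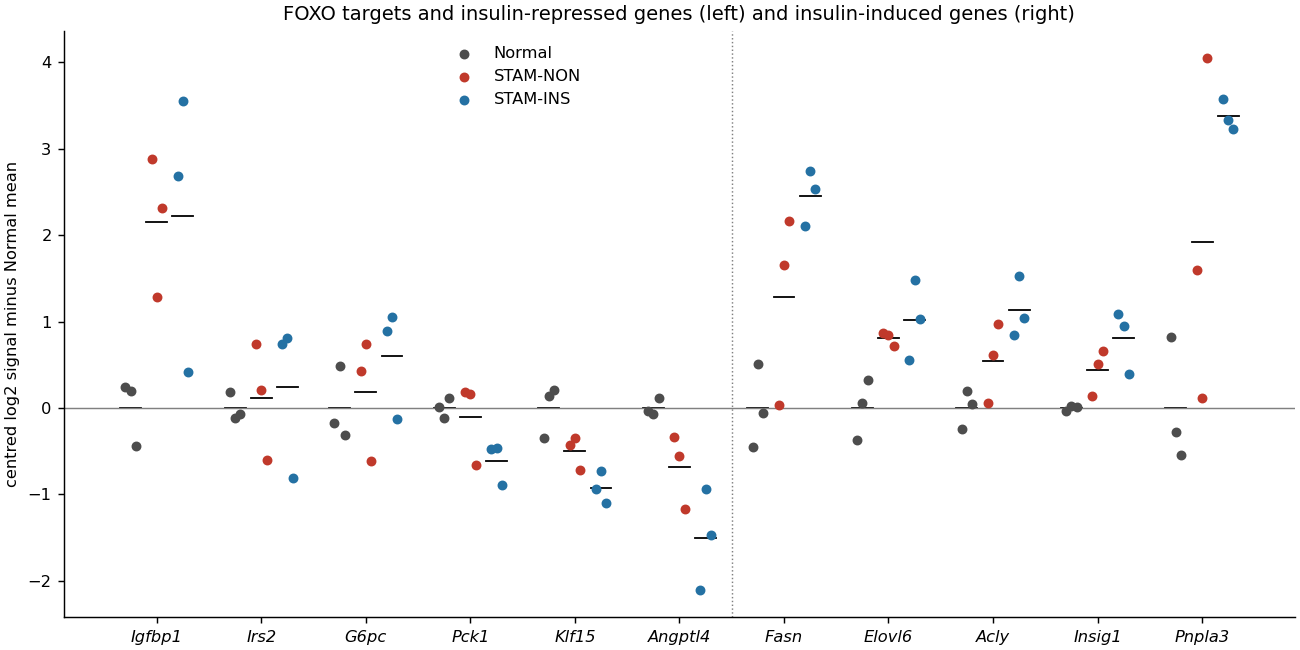
Centred log2 signal minus the Normal mean of the same gene (vertical axis) for 6 FOXO targets or insulin-repressed genes and 5 insulin-induced genes, with 1 point per array coloured by group in replicate order and a bar at the group mean (n = 3). STAM-INS arrays lie above 0 for Fasn, Elovl6, Acly, Insig1 and Pnpla3 and below 0 for Pck1, Klf15 and Angptl4, whereas Igfbp1 lies above 0 on all 6 STAM arrays. No Normal array had Pnpla3 well above background. Its zero line is thus a mean of signals below the detection flag, and its distances from 0 can overstate the difference.

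Of 10 genes that insulin induces in liver, largely those of fatty acid synthesis, 5 rose in STAM-INS against Normal, where 6.15% of all genes did, all 10 differences were above 0, and the median was 0.92, against -0.07 over all genes. Fasn, the fatty acid synthase, read 0.18, 1.13 and 0.56 in Normal, 0.66, 2.28 and 2.79 in STAM-NON and 2.73, 3.37 and 3.16 in STAM-INS. It rose by 2.46 (1.30 to 3.62), 5.50-fold, in STAM-INS against Normal (limma adjusted p 0.0198). Acly, which makes cytosolic acetyl-CoA, rose by 1.14, the elongase Elovl6 by 1.02 and the sterol regulator Insig1 by 0.81, with limma adjusted p of 0.0285, 0.0330 and 0.0343. Pnpla3, a lipid droplet protein induced by Srebp1c, was below the detection flag on all 3 Normal arrays. Its STAM-INS level was at least 3.46-fold higher (limma adjusted p 0.0358). Pnpla3 entered the fit only through STAM-INS, the group where it was high. Its p and its place among the 5 rises are therefore not independent of the detection filter. The 5 calls each held in 3 to 5 of the 9 fits that left out 1 array, with differences of 2.24 to 2.71 for Fasn, and all 5 were lost without STAM-INS replicate 2, Normal replicate 1 or Normal replicate 3. For STAM-NON against Normal, limma called 0 of the 10, with 2 at an unadjusted p under 0.05, and in STAM-INS against STAM-NON again 0, with 2. Medians were 0.49 and 0.55 there.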

How the data were processed

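Per the labels, liver RNA of 9 mice in 3 groups was labelled with Cy3. The files deposited by the authors hold spot intensity from Feature Extraction 11.5.1.1, background-subtracted on a linear scale and not normalised between arrays, with flags. The methods name no normalisation or test for arrays. The RNA kit in the labels differs from that in the microarray methods. Here log2 of the processed signal minus each array's 75th percentile was used. Control spots and outlier spots (161 to 217 per array) were left out, no spot was saturated, and spots of a probe were averaged. Probes entered the fit where a share of 0.5 or more of their spots carried the detection flag on all 3 arrays of some group (26278 of 55681 probes). RefSeq accessions without version gave symbols for 27656 probes. A gene stands by its brightest tested probe. Comparisons used limma 3.58.1 under R 4.3.3 (two-sided, 1 fit to all 9 arrays, 6 residual degrees of freedom, Benjamini-Hochberg), after a test on simulated data. The number of arrays limits the precision. For a probe above background on no array of 1 group, a lower bound on the fold is given, taking the dim group's mean of the higher of the lowest signal above background and the probe's own signal on each array.

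The members, the pathway list and the cell type markers were chosen with earlier results of these data known. Members were named in full. Of other pathway genes, all that passed in STAM-INS minus STAM-NON and the 6 largest rises and falls among those that passed in each other comparison were to be named, and for a passing member the 3 genes most like it. Elovl6 and Insig1 passed but lay outside this rule, and were named after their values were seen. Alternatives were normexp, quantile and spike-in scaling, the percentile over detected probes, other filters, trended robust variances, 2-group fits, blocks, mean probes and leaving out each array. Ceacam1 had no probe, and Insrr, Pik3cg, Inpp4b, Foxo3, Foxo4 and Foxo6 were not tested. The slide as a block was not run, since it cannot be separated from Normal.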

Additional observations from a re-analysis of the deposited data

How the results depend on the processing

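Of 555 alternative values for the 27 member differences, 475 kept direction and side of the threshold, 14 lost a call, 8 gained one and 58 changed sign, and none that changed sign passed. The 14 were all Foxo1 in STAM-INS minus Normal. Of 513 for the 25 passing differences of pathway genes, 290 stayed, 223 lost the call and 0 changed sign. In this paragraph NON, INS and N stand for STAM-NON, STAM-INS and Normal. The number of members passing in NON minus N, 0 as reported, was 1 with trended robust variances (Insr, limma adjusted p 0.0445), 1 in a fit of the 2 groups alone (Igfbp1), and 0 to 1 when each array was left out. In INS minus N, 1 as reported, it was 0 under normexp, quantile scaling, the percentile over probes detected on all arrays, spike-in centring, no filter on dim probes, the slide row as a block and row 2 alone, 2 in a fit of the 2 groups alone (Grb10 added), and 0 to 1 when each array was left out, being 0 without STAM-INS replicate 1 or any Normal replicate. Foxo1 itself also lost its call without STAM-NON replicate 2 and without STAM-INS replicate 3, where Grb10 and Igfbp1 passed in its place. In INS minus NON it was 0 throughout. Where a left-out array leaves a group with 2, the spread is shared with the other groups, as is that of the lone row 1 STAM-INS array. The cause of these changes was not tested.

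Replicate numbers did not pair the mice, since deviations from the group means correlated at r of -0.29 to 0.15 between arrays of the same number. With the replicate block, 1 member passed in NON minus N (Grb10, limma adjusted p 0.0441), 0 in INS minus NON and 0 in INS minus N, and over all probes the calls in NON minus N went from 4220 to 2016, in INS minus NON from 24 to 6 and in INS minus N from 3647 to 1872. The slide row as a block left 15 calls in NON minus N, where only INS arrays link the rows.

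Scaling set the sign of small differences. The median over tested probes in NON minus N was -0.13 as reported, -0.04 with quantile scaling, 0.03 with the percentile over detected probes and 0.18 with spike-in centring, and the calls were 1655 higher and 2565 lower as reported but 2733 and 453 with spike-in centring. Sign changes with quantile scaling, the detected-probe percentile and spike-in centring were 0.0331, 0.0917 and 0.239 for Irs1 in NON minus N, 0.0586, 0.101 and 0.143 for Irs1 in INS minus N, 0.0748, 0.0197 and 0.0611 for Akt2 in INS minus N, and -0.0222, -0.00920 and -0.115 for Akt1 in INS minus NON. With spike-in centring alone they were 0.0158 for Foxo1 and 0.0498 for Akt2 in NON minus N, and -0.00619 for Insr, -0.0960 for Irs1, -0.0188 for Irs2 and -0.0868 for Igfbp1 in INS minus NON. Pik3r1 in INS minus N was 0.0516 under normexp, 0.0518 with the detected-probe percentile, 0.0933 with spike-in centring and 0.0800 with the row as a block or row 2 alone. With the row as a block, Irs2 was -0.619, Foxo1 0.161 and Akt2 0.00805 in NON minus N, and, with row 1 alone too, Akt1 was -0.201, Akt2 -0.0207 and Grb10 0.240 in INS minus NON. Leaving out each array in turn gave ranges that crossed 0, namely -0.188 to 0.0626 for Irs1, -0.196 to 0.474 for Irs2, -0.0646 to 0.268 for Pik3r1 and -0.0200 to 0.138 for Akt1 in NON minus N, -0.0837 to 0.178 for Irs1, -0.228 to 0.658 for Irs2, -0.589 to 0.131 for Grb10, -0.392 to 0.00334 for Pik3r1, -0.0463 to 0.151 for Akt1 and -0.609 to 0.964 for Igfbp1 in INS minus NON, and -0.136 to 0.105 for Irs1, -0.0365 to 0.774 for Irs2, -0.316 to 0.0800 for Pik3r1 and -0.00984 to 0.187 for Akt1 in INS minus N. The row-only fits and the alternatives for pathway genes were chosen after seeing the data. Grb10 and Foxo3 are near background, which limits what the arrays show of them.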
